A study of Schizosaccharomyces pombe with 7 samples.

Results

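Losing fft3 from cells that already lack clr3 was examined by setting the fft3Δ clr3Δ array against the clr3Δ array. These are 2 of the 7 arrays of the series and lie on the same slide, the third of the study. With 1 array a side the comparison is a description: it has no p-value and no replicate error of its own. Its differences, always fft3Δ clr3Δ minus clr3Δ on a log2 scale, are read beside the spread of the 3 wild-type arrays. The 2 fft3Δ arrays, set beside the wild-type array of their own slide, give the loss of fft3 in cells that have clr3.

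All cells were fission yeast (Schizosaccharomyces pombe) with a FLAG-tagged histone H3 that is made on demand. Cultures at 30 °C in 8% glucose were arrested for 4 h in 15 mM hydroxyurea (HU), a drug that blocks DNA replication, and then spent 2 h in 4% sucrose with HU, which turned on the tagged H3. The array ratio therefore follows H3 deposited in arrested cells, the readout of nucleosome turnover outside replication that the series title names. Every genotype, wild type included, had the same tag, arrest and medium change.

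Fft3 belongs to the Snf2 family of chromatin remodellers, enzymes that use ATP to move, assemble or evict nucleosomes. Clr3 is the histone deacetylase of SHREC, a complex that sits on heterochromatin and keeps it silent and poor in turnover. In fission yeast, heterochromatin covers the repeats that flank each centromere core, the mating-type region and the chromosome ends, while the core itself carries the centromeric H3 variant in place of most H3. Clusters of tRNA genes mark the borders between these domains.

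The arrays held 43993 probes of 60 bases, 1 every 50 bases. They tile 2.05 Mb of chromosome II with centromere 2 and the mating-type region, the right end of that chromosome, the left end of chromosome III with copies of the ribosomal DNA (rDNA), and a separate mating-type contig. The genes fft3 and clr3 lie outside the tiled stretches, so the deletions could not be checked on these arrays. DNA sheared to between 500 and 1000 bp was hybridised with ChIP DNA in Cy5 and whole-cell extract DNA (input) in Cy3 on every array, with no dye swap. Levels below are log2 ratios of ChIP to input, centred on the median of the array. Each level is an average over a culture, so a change in every cell and a larger change in a share of the cells cannot be told apart. The labels do not say whether arrays of one genotype came from separate cultures.

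Both arrays of the pair were bright. Input exceeded background at 99.9% of probes on the fft3Δ clr3Δ array and 99.8% on the clr3Δ array, with median input intensities of 1213 and 1307 and no saturated spot. The fft3Δ clr3Δ array had 929 spots marked as nonuniform or as outliers, against 323 on the clr3Δ array and 4 to 312 on the others, and these spots were left out.

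Sequences of a centromere border and of 4 loci with large differences are shown first, read from the RefSeq assembly ASM294v3. The 3 tRNA genes of the left inner border of centromere 2 separate the outer repeats from the core, and they are given 5′ to 3′ on their own strand. Capitals mark the letters GTTCGANNC, searched on both strands, which form part of the box B promoter inside tRNA genes.
SPBTRNAILE.06 at II:1618293-1618366, plus strand: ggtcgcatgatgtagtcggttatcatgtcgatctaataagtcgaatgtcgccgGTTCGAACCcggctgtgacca
SPBTRNAALA.09 at II:1618440-1618513, minus strand: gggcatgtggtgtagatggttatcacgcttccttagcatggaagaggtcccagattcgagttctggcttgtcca
SPBTRNAVAL.06 at II:1619174-1619256, minus strand: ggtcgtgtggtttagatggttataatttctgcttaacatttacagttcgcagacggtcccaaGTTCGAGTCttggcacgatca
The right border carries letter-for-letter copies of these genes in the opposite orientation. The motif stood in 4 of the 6 border genes, in 77.2% of the 171 annotated tRNA genes and in 0.48% of 25611 windows of 80 bases along the tiled block.

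The next 4 stretches, all on the plus strand of chromosome II, surround the probe of largest difference in 4 loci that the results turn on, and capitals mark the 60 bases of that probe. SPNCRNA.5262 is a noncoding RNA gene of the outer repeats beside the left tRNA border, and SPNCRNA.368 lies in the centromere core. SPNCRNA.1572 is a noncoding RNA gene of the chromosome arm, and SPBPB2B2.16C is a protein-coding gene of the subtelomere.
SPNCRNA.5262 at II:1616921-1617160: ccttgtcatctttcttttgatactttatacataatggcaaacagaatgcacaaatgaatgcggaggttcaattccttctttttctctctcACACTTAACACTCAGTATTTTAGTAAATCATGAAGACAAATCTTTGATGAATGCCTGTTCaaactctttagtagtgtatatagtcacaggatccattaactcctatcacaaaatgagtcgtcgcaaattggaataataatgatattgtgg
SPNCRNA.368 at II:1619871-1620110: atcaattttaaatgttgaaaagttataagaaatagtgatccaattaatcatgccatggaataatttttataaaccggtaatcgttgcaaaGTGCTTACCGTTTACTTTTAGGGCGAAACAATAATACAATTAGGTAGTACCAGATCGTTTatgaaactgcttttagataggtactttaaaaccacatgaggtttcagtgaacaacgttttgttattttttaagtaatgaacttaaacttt
SPNCRNA.1572 at II:3010371-3010610: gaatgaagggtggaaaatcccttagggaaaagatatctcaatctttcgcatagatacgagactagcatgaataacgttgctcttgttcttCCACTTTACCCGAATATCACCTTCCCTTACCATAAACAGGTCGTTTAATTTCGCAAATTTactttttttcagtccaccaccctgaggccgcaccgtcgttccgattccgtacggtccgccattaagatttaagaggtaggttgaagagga
SPBPB2B2.16C at II:4498811-4499050: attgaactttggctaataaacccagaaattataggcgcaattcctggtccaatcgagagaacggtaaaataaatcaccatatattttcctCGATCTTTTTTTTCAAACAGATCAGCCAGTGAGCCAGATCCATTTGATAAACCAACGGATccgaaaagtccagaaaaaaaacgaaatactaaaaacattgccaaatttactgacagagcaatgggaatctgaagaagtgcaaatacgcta
The SPNCRNA.5262 probe read 0.57 on the fft3Δ clr3Δ array and −1.25 on the clr3Δ array, against −2.05 to −1.51 in wild type. The SPNCRNA.368 probe read −1.79 and −2.94 on the same 2 arrays, against −3.21 to −2.67 in wild type. Both probes thus lay higher in the double mutant as measured. The SPNCRNA.1572 probe read −0.56 on the fft3Δ clr3Δ array and 1.69 on the clr3Δ array, against 1.45 to 1.93 in wild type. The SPBPB2B2.16C probe read −0.23 and 1.00, against 0.22 to 0.44 in wild type. At these loci the double mutant was the lower of the pair and lay below every wild-type array. The SPNCRNA.5262 and SPBPB2B2.16C probes match 3 places in the genome, the SPNCRNA.368 probe 2 and the SPNCRNA.1572 probe 1.

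Across 2200 windows of 1 kb, 84 were higher in fft3Δ clr3Δ than in clr3Δ by at least 0.5 (a 1.41-fold difference), which is 3.82% of all windows, and 67 were lower by as much, which is 3.05%. The higher windows sat mostly in silent or repeated chromatin: 26 of the 30 windows of the outer repeats, 10 of 10 of the central core (0 after quantile normalization), 23 of 50 of the right subtelomere, 10 of 26 of chromosome III inside the rDNA and 4 of 10 of the rDNA spacers. On the arm 8 of 1968 windows were higher (26 after normexp). Loess left 14 higher windows in the outer repeats and 12 in the subtelomere. Probes found once left 1 and 4, but most probes there match more than 1 place (94.2% and 81.2%). Windows with fewer than 10 remaining probes were dropped. Of the lower windows, 63 were on the arm and 4 in the subtelomere. The difference was larger than the whole range of the 3 wild-type arrays in 72 of the 84 higher and in 59 of the 67 lower windows. These windows were picked for a large difference, which favours this outcome, and the share over all 2200 windows was not counted. The split moved with processing: the counts were 93 higher and 137 lower after normexp background correction, and 53 and 80 after loess. They were 85 and 20 with clr3Δ replaced by its straight-line fit to the double mutant over the arm, an alternative chosen after seeing the data. With probes found once in the genome they were 29 and 58 of 2013 windows, where windows of repeated probes are no longer measured.

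**Figure D1:**
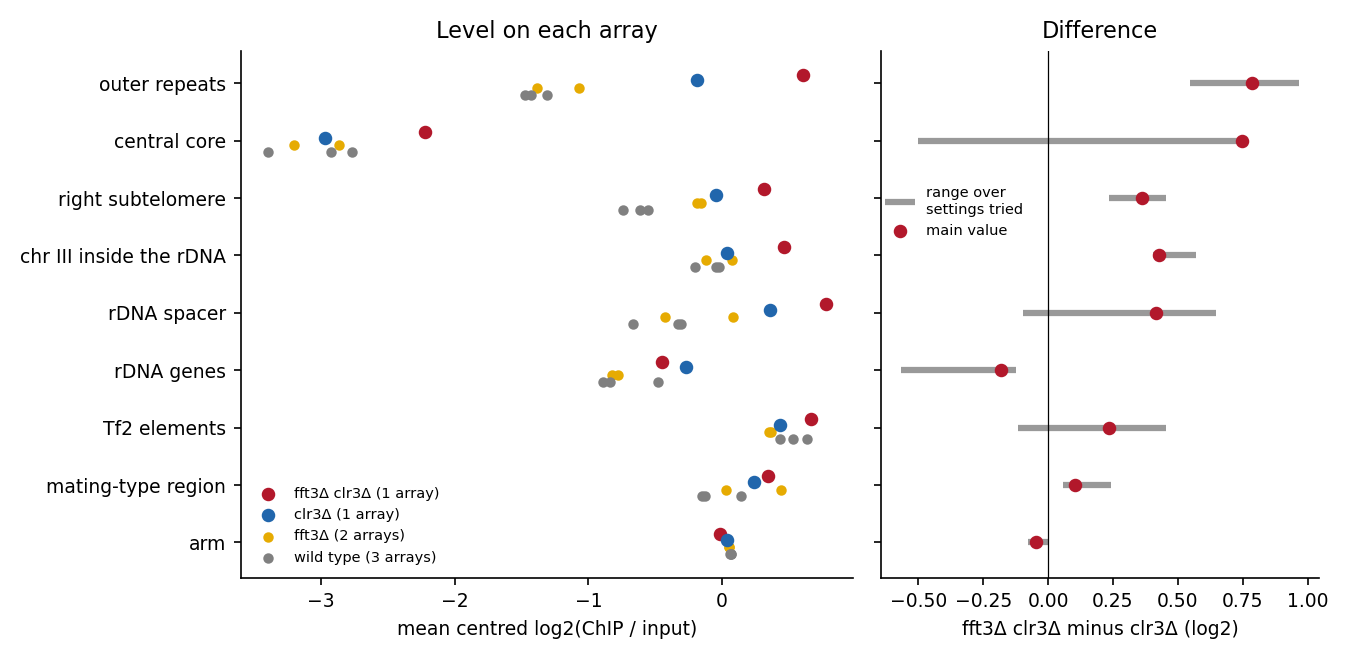
Mean centred log2(ChIP / input) of each region on every array (left) and fft3Δ clr3Δ minus clr3Δ (right), where the point is the reported value and the grey line spans the lowest and highest value over the settings tried. The outer repeats are higher in the double mutant by 0.79 with a span of 0.55 to 0.97, whereas the spans of the central core (−0.50 to 0.77), the rDNA spacer (−0.10 to 0.65) and the Tf2 elements (−0.11 to 0.46) cross 0.

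The outer repeats of centromere 2, the transcribed heterochromatin on both sides of its core, showed the largest regional difference as measured, although the central core was the larger after loess (0.70 against 0.55) and with probes found once (0.73 against 0.69). Their mean level was 0.60 on the fft3Δ clr3Δ array and −0.18 on the clr3Δ array, a difference of +0.79 or 1.72-fold. The fft3Δ arrays stood at −1.07 and −1.39, and wild type at −1.40 ± 0.08 (SD, n = 3). In all 26 higher windows both clr3-deleted arrays lay above every fft3Δ and wild-type array. Loss of fft3 alone gave +0.35 on slide 1 and +0.08 on slide 2, and the mean difference of +0.17 had an exact two-sided permutation p of 0.3, where 0.1 is the smallest that 10 splits allow. Whether the 2 backgrounds differ in their response to fft3 loss was not tested, since each array of the pair is the only one of its genotype.

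The 2 sides of the centromere moved alike. The left repeats (II:1602418-1618292) read 0.60 in fft3Δ clr3Δ and −0.18 in clr3Δ, and the right repeats (II:1630123-1643848) read 0.60 and −0.19. The repeats are inverted copies, and 81.4% of the 40-base words of the left side occur in the reverse complement of the right, so these are not independent measurements. Windows at mirrored places correlated at r = 0.888 over 13 pairs. Of the probes there, 94.2% match more than 1 place in the genome, so copies elsewhere enter these values. The few probes found once gave a difference of +0.69.

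Both channels moved at the outer repeats. Input was 1.48 on the fft3Δ clr3Δ array, 1.84 on the clr3Δ array and 1.31 to 1.99 elsewhere, a difference of −0.36, while ChIP signal was higher by 0.48. Lower input and higher ChIP each made up a share of the ratio, and the double mutant's input lay inside the range of the other arrays.

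Of 35 genes of the outer repeats, 30 were higher by at least 0.5 and none was lower, where 3.47% of the 2220 genes measured were higher and 3.29% lower. The 12 genes of largest positive difference on the arrays all lay there and all encode noncoding RNAs. SPNCRNA.5262 led, with 0.50 in fft3Δ clr3Δ, −0.74 in clr3Δ, −1.46 and −1.95 in fft3Δ, and −1.94, −1.87 and −1.58 in wild type, a difference of +1.25. The double mutant was above 0 where every other array was below it. All of its 40-base words (100%) recur in the right repeats, so its probes also report that side. On the same side, SPNCRNA.366 (+1.07), SPNCRNA.5263 (+1.06) and SPNCRNA.5261 (+1.04) lie beside the left tRNA border. On the right side, SPNCRNA.5265 (+1.09), SPNCRNA.5264 (+1.06), SPNCRNA.5268 (+1.01), SPNCRNA.5266 (+1.00) and SPNCRNA.5269 (+0.99) lie nearest the core. Farther out, SPNCRNA.373 (+0.94), SPNCRNA.5276 (+0.91) and SPNCRNA.360 (+0.90) differed slightly less in the ratio. In ChIP signal alone these 3 differed by 0.864, 0.773 and 0.775. The genes nearer the core ran from 0.508 (SPNCRNA.366) to 0.94 (SPNCRNA.5269), with SPNCRNA.5262 at 0.689. Input differed by −0.608 at SPNCRNA.5262 and −0.126 at SPNCRNA.373, so the order of these genes depends on the input channel. SPNCRNA.360 read 0.88 in fft3Δ clr3Δ, −0.02 in clr3Δ, −0.94 and −1.14 in fft3Δ, and −1.38, −1.25 and −1.22 in wild type. After loess the 3 genes farther out differed by 0.55 (SPNCRNA.373), 0.47 (SPNCRNA.5276) and 0.50 (SPNCRNA.360), and the last 2 no longer passed the fold.

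**Figure D2:**
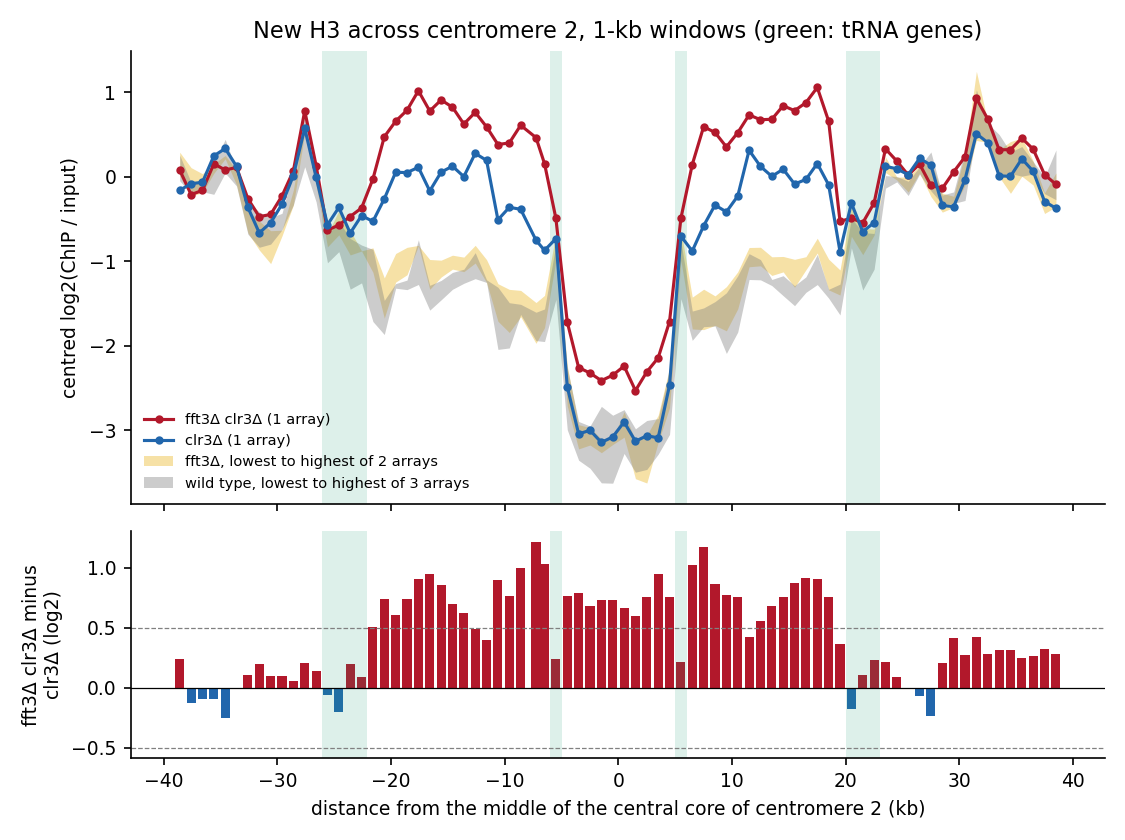
Centred log2(ChIP / input) in 1-kb windows on the 7 arrays (upper panel) and fft3Δ clr3Δ minus clr3Δ (lower panel) by distance from the middle of the core of centromere 2. The double mutant is highest across the outer repeats, and its difference to clr3Δ is largest beside the inner tRNA borders (+1.22 and +1.17) and +0.24 and +0.21 at the borders themselves.

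Along the centromere the difference in ratio was largest next to the inner borders. The largest window differences were +1.22 at −7.24 kb and +1.17 at 7.51 kb from the middle of the core, and the windows over the border tRNA genes gave +0.24 and +0.21. A second rise lay farther out, with +0.95 at −16.6 kb and +0.91 at 16.5 kb, and between the peaks the difference was as small as +0.40 on the left and +0.42 on the right. The input difference was −0.63 and −0.55 at the 2 largest windows, and −0.06 and −0.04 at the second rise. The part of input in the peaks beside the borders was not tested. The higher windows of the repeats formed stretches of up to 9 windows, of which the longest (II:1602111-1611120, +0.74) holds SPNCRNA.360 and nam6, and the next (II:1636211-1643220, +0.77) holds SPNCRNA.373 and SPNCRNA.5276. The stretch beside the right border, II:1630211-1635220, differed by +0.92. The borders as a whole read −0.48 in fft3Δ clr3Δ and −0.68 in clr3Δ (+0.20). SPBTRNAVAL.06, the valine tRNA gene whose sequence is given above, read −0.35 in fft3Δ clr3Δ, −0.63 in clr3Δ, −0.54 and −0.68 in fft3Δ, and −0.83, −1.01 and −0.64 in wild type. At the outer edges the tRNA clusters read −0.48 and −0.52 (+0.04), and the 20 kb of arm beyond them differed by +0.04 on the left and +0.17 on the right. No window of the outer tRNA clusters passed the fold.

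The central core, where newly made canonical H3 was scarcest in all genotypes, read −2.22 on the fft3Δ clr3Δ array and −2.97 on the clr3Δ array, a difference of +0.75 that turned to −0.03 after quantile normalization, −0.41 after normexp and −0.50 with the straight-line fit of clr3Δ. The fft3Δ arrays read −2.86 and −3.20, and wild type read −2.93, −3.39 and −2.77. In all 10 core windows the double mutant lay above every fft3Δ and wild-type array, and clr3Δ lay within them. SPNCRNA.368 read −2.21 in fft3Δ clr3Δ and −3.09 in clr3Δ (+0.88), and SPNCRNA.369 read −2.03 and −2.89 (+0.86).

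The right subtelomere of chromosome II, the last 50 kb before the chromosome end, read 0.32 in fft3Δ clr3Δ and −0.04 in clr3Δ, a difference of +0.36 (1.28-fold) with a span of 0.24 to 0.46 over the settings tried. The fft3Δ arrays read −0.16 and −0.19, and wild type read −0.55, −0.74 and −0.61. Loss of fft3 with clr3 present gave +0.39 on slide 1 and +0.55 on slide 2, so the subtelomere was higher without fft3 in both backgrounds. In steps of 10 kb from the end inward, the difference of the pair was +0.34, +0.41, +0.58, +0.33 and +0.14. The middle of the domain thus differed most. Of the subtelomere's probes 81.2% match more than 1 place in the genome, and input was higher in the double mutant by 0.23.

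**Figure D3:**
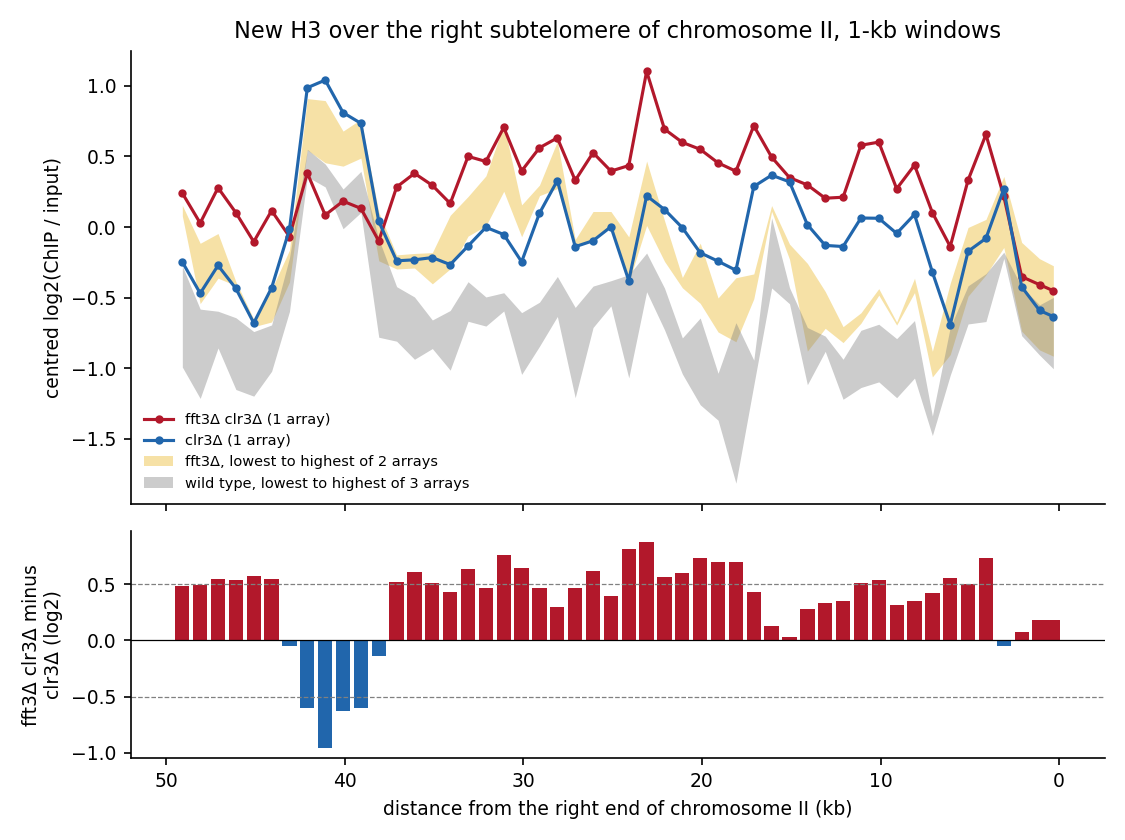
Centred log2(ChIP / input) in 1-kb windows on the 7 arrays (upper panel) and fft3Δ clr3Δ minus clr3Δ (lower panel) by distance from the right end of chromosome II. The double mutant is higher along most of the 50 kb, by up to +0.88, and is lower by 0.60 to 0.96 in the 4 windows of the SPBPB2B2.16C locus.

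Of 48 subtelomeric genes, 18 were higher by at least 0.5 and 3 lower, beside 3.47% and 3.29% of all 2220 genes. Overlapping genes share probes, so the 48 are not separate measurements. Among them, 6 of the 12 protein-coding genes were higher and 1 was lower, with a median of +0.49, and 10 of 32 noncoding RNA genes were higher and 2 lower, with a median of +0.36. The longest higher stretch, II:4515201-4522210 with 7 windows, averaged 0.60 in fft3Δ clr3Δ and −0.11 in clr3Δ (+0.71). It holds the pseudogenes SPBCPT2R1.05C and SPBCPT2R1.06C. SPBCPT2R1.06C read 0.70 in fft3Δ clr3Δ, −0.07 in clr3Δ, −0.04 and −0.37 in fft3Δ, and −0.75, −0.98 and −1.07 in wild type (+0.78). The double mutant lay above all other arrays at this gene, wild type lay below them, and the single mutants overlapped. A shorter stretch, II:4492201-4496210 with SPBPB2B2.14C, differed by +0.55. Nearer the end, tlh2, a RecQ-type helicase gene silenced in wild type, read 0.37 in fft3Δ clr3Δ, −0.04 in clr3Δ, −0.63 and −0.66 in fft3Δ, and −1.09, −0.85 and −1.17 in wild type. Its difference of +0.40 is below the fold used, and was 0.16 after loess, yet its 4 genotypes stood at separate levels with no overlap as measured. Of the 119 probes of tlh2, 111 match more than 1 place.

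One subtelomeric locus went the other way. SPBPB2B2.16C, which encodes a predicted membrane transporter, read 0.14 in fft3Δ clr3Δ, 1.03 in clr3Δ, 0.46 and 0.90 in fft3Δ, and 0.26, 0.35 and 0.46 in wild type, a difference of −0.89. The stretch around it, II:4497201-4501210 with SPNCRNA.448, averaged 0.20 in fft3Δ clr3Δ and 0.89 in clr3Δ (−0.70), where wild type averaged 0.30. On the arrays with clr3, fft3Δ was higher than wild type there, by 0.28 on slide 1 and 0.54 on slide 2. Each single mutant thus lay above wild type at this stretch and the double mutant below the wild-type mean. All probes of SPBPB2B2.16C match more than 1 place. The 4 lower windows fell to 0 under the straight-line fit of clr3Δ. None was left with probes found once, but that setting cannot measure the gene. It drops windows with fewer than 10 such probes, so that fall cannot show whether the difference holds.

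The spacers of the rDNA on chromosome III read 0.77 in fft3Δ clr3Δ and 0.36 in clr3Δ, a difference of +0.41 that turned to −0.10 after loess. The fft3Δ arrays read 0.08 and −0.43, and wild type read −0.31, −0.67 and −0.33. All 8 annotated genes of the spacers were higher by at least 0.5, where 3.47% of the 2220 genes measured were higher. All probes of the spacers and of the rDNA genes (100%) match more than 1 place. The first and second spacer copies differed by +0.39 and +0.44, so their genes are not separate measurements. The rDNA genes themselves read −0.45 and −0.27 (−0.18), and none of the 7 rRNA genes there passed the fold, with SPRRNA.43 at −0.23 and SPRRNA.50 at −0.20. After loess both were lower, the spacers by −0.10 and the genes by −0.57, with SPRRNA.43 at −0.56, past the fold.

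Input differed more than the ratio at the rDNA. The centred log2 input at the rDNA genes was 2.36 on the fft3Δ clr3Δ array and 0.79 on the clr3Δ array, where the other 5 arrays ranged from −0.46 to 1.45. At the spacers it was 2.47 on the fft3Δ clr3Δ array and 1.49 on the clr3Δ array, with 0.27 to 1.65 elsewhere. The double mutant thus had the highest rDNA input of the 7 arrays. Input and ChIP moved together there, ChIP by 1.44 at the genes and 1.45 at the spacers, and the part of input in the spacer difference was not tested.

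Inside the rDNA, the first stretch of chromosome III (III:24439-49970) read 0.46 in fft3Δ clr3Δ and 0.04 in clr3Δ, a difference of +0.43 that stayed between 0.40 and 0.57 over the settings tried. The fft3Δ arrays read 0.07 and −0.12, and wild type read −0.05, −0.20 and −0.02, so the double mutant stood alone above the other 6 arrays. Input differed by 0.06 over the stretch, although by 0.98 in the window next to the rDNA. Of its 24 genes, 6 were higher by at least 0.5 and none was lower, beside 3.47% and 3.29% of all 2220 genes. A higher stretch of 4 windows, III:38011-42020, averaged 0.41 in fft3Δ clr3Δ and −0.19 in clr3Δ. It holds SPCC1884.01 and meu3. The placement of the chromosome III probes on the assembly is weak, so their gene names are less sure than those on chromosome II.

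The mating-type region (II:2114219-2138318) differed little, with 0.35 in fft3Δ clr3Δ and 0.24 in clr3Δ (+0.11), against 0.44 and 0.03 in fft3Δ and 0.14, −0.15 and −0.13 in wild type. Of its 24 windows 1 was higher. The 4 mating genes measured had a median of +0.26 and none passed the fold. mat1-Mi read 0.84 in fft3Δ clr3Δ and 0.56 in clr3Δ, and mat3-Mc read 0.88 and 0.62. All 3 probes of mat1-Mi and all 11 of mat3-Mc match more than 1 place, so the cassettes were not measured separately. Parts of 5 kb along the separate mating-type contig differed by 0.004, +0.16, +0.09, −0.10, −0.14, +0.17, +0.48 and +0.22, the last of them slightly longer. The largest of these, from 30 to 35 kb, read 0.67 in fft3Δ clr3Δ and 0.19 in clr3Δ. That single higher window (+0.74) is II:2131211-2132220, near mat3-Mi, where centred log2 input was −0.86 on the fft3Δ clr3Δ array and −7.05 on the clr3Δ array, with 18 of its 20 probes not above background there. The same input was −1.06 and −6.94 on the 2 fft3Δ arrays and −0.99, −7.09 and −6.99 on the 3 wild-type arrays, so arrays of one genotype fell into both classes. The labels do not give the mating-type genotype of the strains, so a strain difference there and a difference in H3 cannot be told apart.

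The 2 Tf2 retrotransposons of the block read 0.67 in fft3Δ clr3Δ and 0.43 in clr3Δ, a difference of +0.24 that turned to −0.11 after loess. Of their probes 98.1% match more than 1 place in the genome, so copies elsewhere enter these values. The fft3Δ arrays read 0.37 and 0.35, and wild type read 0.53, 0.63 and 0.43. With clr3 present, loss of fft3 went with lower Tf2 values, by −0.17 on slide 1 and −0.28 on slide 2. Tf2 input was 2.44 in fft3Δ clr3Δ and 2.91 in clr3Δ, and ChIP was lower by 0.19, so the higher ratio came with a lower ChIP signal. Solo long terminal repeats of the arm, the remnants of such elements, read 0.03 and 0.13 (−0.10).

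On the chromosome arm the pair differed mainly downward, at places where new H3 is rich. The mean over the arm was −0.02 in fft3Δ clr3Δ and 0.03 in clr3Δ. In 60 of the 63 lower arm windows the double mutant lay below all fft3Δ and wild-type arrays, and in 46 of the 63 clr3Δ lay within those arrays. The 63 were picked because the double mutant was low beside clr3Δ, which favours the first count. The share over all 1968 arm windows was not counted. The median wild-type level of these windows was 0.77. Their median ChIP difference was −0.42 and their median input difference +0.20, with input higher in 47 of 63. Of the 40 lower stretches, 39 were on the arm and 24 were single windows, so lower values were scattered and in short stretches.

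The arm stretch of largest difference, II:3008211-3012220, averaged −0.28 in fft3Δ clr3Δ and 1.05 in clr3Δ (−1.33), where wild type averaged 1.08. It covers SPNCRNA.1571, SPNCRNA.1572 and the start of gsf1. SPNCRNA.1572 read −0.39 in fft3Δ clr3Δ, 1.25 in clr3Δ, 1.21 and 1.19 in fft3Δ, and 1.26, 1.44 and 1.17 in wild type, which is the largest negative difference of any gene, −1.64. The double mutant lay far below the other 6 arrays, which were close to each other. SPNCRNA.1571, which overlaps it on the opposite strand, differed by −1.46. The probes are double-stranded DNA measurements and cannot assign the lower level to either gene. Input at the stretch was higher in the double mutant by 0.60. A second stretch in gsf1 and slm9, II:3014211-3017220, differed by −0.57.

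Other lower arm stretches hold protein-coding genes. At II:2806211-2809220 the level was −0.03 in fft3Δ clr3Δ and 0.91 in clr3Δ (−0.94), with input higher by 0.59. This is the locus of tdh1, a glyceraldehyde-3-phosphate dehydrogenase of glycolysis, which read −0.04 in fft3Δ clr3Δ, 0.86 in clr3Δ, 0.69 and 1.02 in fft3Δ, and 0.76, 1.53 and 0.79 in wild type (−0.90). SPNCRNA.1550 beside it differed by −0.97. At II:1948211-1952220 the level was −0.53 in fft3Δ clr3Δ and 0.37 in clr3Δ (−0.89), with input higher by 0.37. It holds SPNCRNA.1480 (−0.99) and lsd90, which read −0.93 in fft3Δ clr3Δ, 0.06 in clr3Δ, −0.46 and 0.66 in fft3Δ, and −0.82, 1.04 and −0.43 in wild type. The wild-type arrays alone span more than the difference of −0.99 at lsd90. The longest lower stretch, II:2586211-2591220, averaged −0.10 in fft3Δ clr3Δ and 0.47 in clr3Δ (−0.58) with no input difference. It holds tkt1 (transketolase, −0.57), hmt2 (a sulfide oxidoreductase, −0.61) and rpc25, a subunit of RNA polymerase III.

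The other genes among the 12 of largest negative difference were noncoding RNAs: SPNCRNA.5867 (−1.08), SPNCRNA.5193 (−0.94), SPNCRNA.1534 (−0.89), SPNCRNA.5917 (−0.85) and SPNCRNA.5102 (−0.82). SPNCRNA.1534 read 0.29 in fft3Δ clr3Δ, 1.18 in clr3Δ, 1.47 and 1.23 in fft3Δ, and 1.41, 1.29 and 1.15 in wild type. At SPNCRNA.5193 input was higher by 0.87 and ChIP differed by −0.02, so at this gene the lower ratio came with higher input alone.

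Genes were also grouped by annotation and by function. Of 2220 genes 77 were higher and 73 lower, with a median of −0.02. Of 863 protein-coding genes of the arm, 2 were higher and 21 lower (median −0.03), and of 1149 arm noncoding RNA genes 10 were higher and 46 lower (median −0.03). The 4 glycolysis genes had a median of −0.71 and 3 were lower: besides tdh1, eno101 (enolase) read −0.34 in fft3Δ clr3Δ, 0.38 in clr3Δ, 0.66 and 0.46 in fft3Δ, and 0.78, 1.26 and 0.46 in wild type. fba1, the aldolase gene, read −0.12 in fft3Δ clr3Δ, 0.58 in clr3Δ, 0.69 and 0.73 in fft3Δ, and 0.51, 1.13 and 0.38 in wild type. The double mutant was the lowest array at both genes, whose wild-type values spread widely.

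The histone genes hht2 and hhf2 encode H3 and H4 and form a divergent pair. hht2 read 0.94 in fft3Δ clr3Δ, 1.60 in clr3Δ, 1.29 and 1.54 in fft3Δ, and 1.60, 1.49 and 1.31 in wild type, a difference of −0.66 that turned to +0.06 with the straight-line fit of clr3Δ. hhf2 read 0.36 in fft3Δ clr3Δ, 0.91 in clr3Δ, 0.81 and 0.89 in fft3Δ, and 0.76, 0.87 and 0.66 in wild type (−0.54, and −0.46 after quantile normalization, below the fold). The double mutant was the lowest of the 7 arrays at both, while pht1, the H2A.Z gene, differed by −0.20. The small heat shock protein gene hsp16 read 0.61 in fft3Δ clr3Δ, 1.37 in clr3Δ, 1.22 and 1.47 in fft3Δ, and 1.42, 1.40 and 1.48 in wild type (−0.76). gpx1, a glutathione peroxidase of the stress list, read 0.43 in fft3Δ clr3Δ, 1.08 in clr3Δ, 1.21 and 1.28 in fft3Δ, and 0.96, 1.16 and 1.01 in wild type (−0.65). Both stood apart from 6 arrays that agree more closely with each other.

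Other lists held few genes past the fold. None of 25 ribosomal protein genes passed, and 21 of them were below 0, as were 1180 of all 2220 genes. Their median was −0.24, beside a wild-type SD of the list median of 0.144, with rps21 at −0.42 and rpl2701 at −0.38. With clr3 present, fft3Δ minus wild type had a list median of +0.122 on slide 1 and −0.142 on slide 2. Of 14 snoRNA and snRNA genes 2 were lower, snoU14 (−0.62) and snu1 (−0.53, and −0.46 after quantile normalization), around a median of −0.06. Over all genes 3.29% were lower. None of the 25 tRNA genes passed (median +0.13), the largest differences being those of SPBTRNAVAL.06 (+0.28) and SPBTRNAPRO.04 (+0.26). Nor did any of the 7 arm genes for 5S rRNA (median −0.01), with SPRRNA.34 at +0.24 and SPRRNA.35 at −0.20. The 3 genes of the G1/S and replication list had a median of −0.17, with cdc18, a replication licensing factor, at −0.39 and mcm2 at −0.17. The 4 meiosis genes had a median of −0.03, with rec8, the meiotic cohesin subunit, at −0.38 and rep1 at −0.13. The remaining lists have 2 genes each: clr1 (−0.09) and tas3 (−0.11) of the heterochromatin factors, str1 (−0.03) and php4 (+0.06) of iron uptake, gas2 (−0.35) and bgs1 (−0.04) of the cell wall, mas5 (−0.09) beside hsp16 among chaperones, and atf21 (−0.11) beside gpx1. Of the 7 pseudogenes 2 were higher, beside 3.47% of all genes.

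The values of the fft3Δ clr3Δ array spanned a narrower range than those of the clr3Δ array, and the size of that narrowing depended on where it was measured. Over all probes the median absolute deviation was 0.235 in fft3Δ clr3Δ and 0.251 in clr3Δ, a ratio of 0.938. Averaging over 1-kb windows of the arm, which lowers probe noise, gave standard deviations of 0.272 in fft3Δ clr3Δ and 0.353 in clr3Δ, a ratio of 0.769, where the other 5 arrays had 0.326 to 0.413. The interquartile range of probes was 0.470 in fft3Δ clr3Δ and 0.506 in clr3Δ. The double mutant had the smallest standard deviation of arm windows of the 7 arrays, but by median absolute deviation of arm probes it read 0.218, above wild-type array 1 at 0.213. Its neighbouring probes also agreed least, with a correlation of 0.815 against 0.882 in clr3Δ, and a median step between neighbours of 0.146 against 0.115. The smoothed profile was thus flatter while the probe-to-probe scatter was larger.

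**Figure D4:**
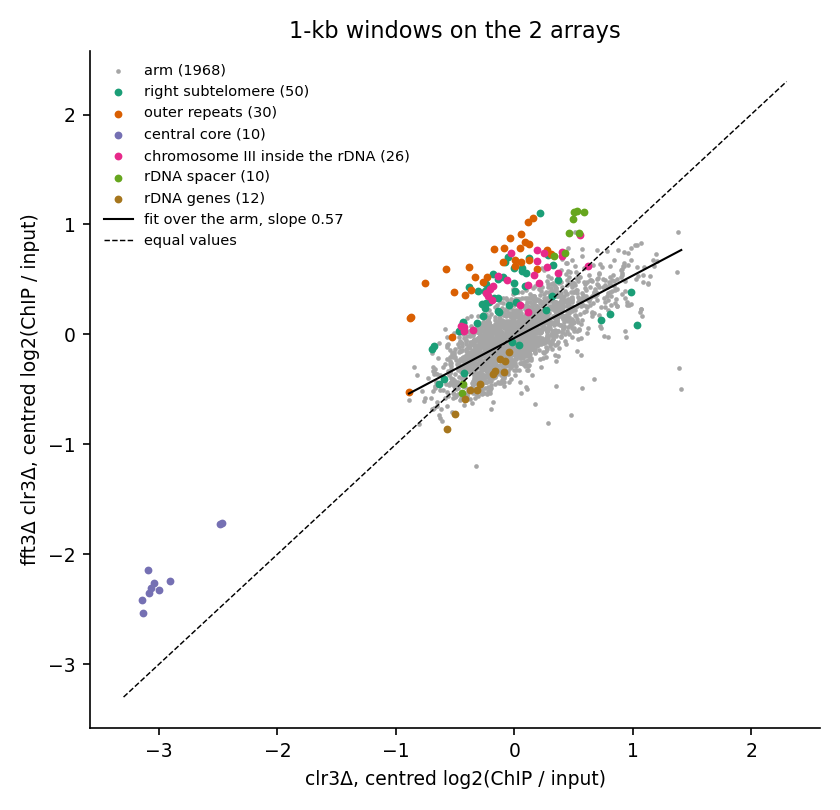
Each point is a 1-kb window, with its centred log2(ChIP / input) on the clr3Δ array (horizontal) and on the fft3Δ clr3Δ array (vertical), and the dashed line marks equal values. Outer repeats lie above the line at clr3Δ values near 0, while arm windows with high clr3Δ values lie below it.

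A regression of fft3Δ clr3Δ on clr3Δ across windows had a slope of 0.627 (r = 0.750, n = 2200) and of 0.568 on the arm alone (r = 0.738, n = 1968). Neighbouring windows share sheared fragments, and the r values describe these 2 arrays only. With clr3 present, the slope of fft3Δ on wild type on the arm was 1.20 on slide 1 and 0.818 on slide 2. Such slopes fall with scatter as well as with a flatter profile. The SD of arm windows was 0.413 in fft3Δ and 0.326 in wild type on slide 1, and 0.398 and 0.413 on slide 2. Loss of fft3 thus did not go with a flatter profile on both slides.

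**Figure D5:**
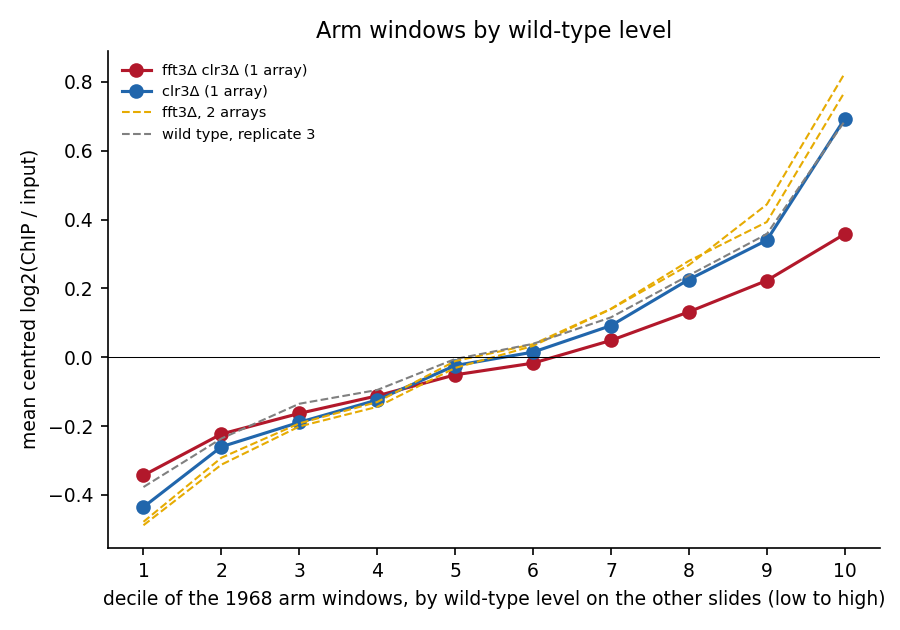
Mean centred log2(ChIP / input) of the 1968 arm windows in deciles of the wild-type level, taken from the wild-type arrays of the other 2 slides and ordered low to high. Dashed lines show both fft3Δ arrays and wild-type array 3, and the double mutant lies above clr3Δ in the lowest decile (−0.34 and −0.44) and below it in the highest (0.36 and 0.69).

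The narrowing was uneven along the scale. In the lowest decile of arm windows by wild-type level, fft3Δ clr3Δ averaged −0.34 and clr3Δ −0.44, a difference of +0.09. In the highest decile they averaged 0.36 and 0.69, a difference of −0.34. The difference at the top was thus larger than that at the bottom, and 46 of the 63 lower arm windows lay in the top decile. In the same top decile fft3Δ averaged 0.82 and 0.77, and wild type 0.71, 0.86 and 0.69. The double mutant lay below the other 6 arrays there, of which wild-type arrays 1 and 2 set the order of the windows.

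With both arrays set to the same spread of arm windows, an alternative chosen after seeing the data, the outer repeats differed by +0.97 and 28 of their windows were higher, the subtelomere had 30 higher windows and the core none. This left 57 lower arm windows, against 63 as measured. With the straight-line fit of clr3Δ, the outer repeats again had 28 higher windows. Lower arm windows then numbered 13, but the fit was made on these same arm windows and lowers their differences by construction.

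Base composition went with the difference on the arm. The correlation with GC content was −0.287 for the difference and 0.244 for the input difference over 1968 windows, whereas the wild-type level had 0.018. The arm decile poorest in GC averaged +0.04 and the richest −0.19. Removing this trend, again chosen after seeing the data, left 59 lower arm windows and 26 higher windows in the outer repeats. Its part in single loci was not tested.

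Arrays of a single genotype on different slides give a measure of what the arm counts are worth. Between wild-type arrays 2 and 1, 61 arm windows were higher and 85 lower by at least 0.5, between arrays 3 and 2, 49 and 72, and between arrays 3 and 1, 1 and 3. The 2 fft3Δ arrays differed at 21 and 55. The pair had 8 higher and 63 lower. The large counts within a genotype all involve an array of slide 2. On shared slides, fft3Δ against wild type had 3 higher and 0 lower on slide 1, and 24 and 31 on slide 2. On slide 3, the slide of the pair, clr3Δ against wild-type array 3 had 5 higher and 4 lower. At the outer repeats the difference of +0.79 stood beside a wild-type SD of 0.08 and fft3Δ arrays at −1.07 and −1.39. Neither genotype of the pair has a replicate, so its own spread there is unknown.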

How the data were processed

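H3-FLAG ChIP-chip was compared between 1 fft3Δ clr3Δ and 1 clr3Δ array, with 2 fft3Δ and 3 wild-type arrays beside them. The deposited scanner intensities were written by Agilent Feature Extraction (per the submitters' processing notes), version 10.7.3.1 on slide 1 and 12.0.3.1 on slides 2 and 3, per the file headers. The processed intensity of each channel was background-subtracted and dye-normalized by the authors' scanner software, per the file headers. The deposited log10 ratio and the log2 ratio of the deposited series table are that ratio of red to green processed signal, checked against the intensities, and the series table was not centred or scaled. Medians of its columns were −0.043 for fft3Δ clr3Δ, −0.029 for clr3Δ, −0.042 and 0.0017 for fft3Δ, and −0.037, 0.018 and −0.0014 for wild type. Deposited flags of 0 or 1 mark nonuniform, outlying, saturated or dim spots. The genome build of the probe coordinates is unstated in the labels and headers used here.

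Each probe stretch was placed on ASM294v3 by the offset (900, 1800, 1800 and 0 bases for successive stretches) at which input best followed GC content. On chromosome III that correlation was 0.451 against 0.362 at the next best offset, so the placement is weak. Of 43993 probes 42972 were placed, 824 belong to the contig and 197 were left unplaced. Log2 processed ratios were centred on each array's median, without nonuniform or outlier spots, and averaged over regions, 1-kb windows with at least 10 probes and genes with at least 2. Of 2220 genes 1953 share a probe with another gene. Past the fold means a log2 difference of at least 0.5. No test was made for the pair, whose precision is limited by its 2 arrays. For fft3Δ against wild type an exact two-sided permutation over 5 arrays was used.

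Regions and gene lists were chosen with earlier results of these data known. Genes named are the 12 with the largest difference each way among those with at least 4 probes, past the fold and of the same sign with arrays scaled to equal spread, the 2 most different of each list, hht2, hsp16 and tlh2, and the 6 longest stretches each way. Other genes in those stretches or lists, and SPNCRNA.368 and SPNCRNA.369 of the core, were picked after their values were seen. Alternatives were other scalings and normalizations, normexp with an offset of 50 on the deposited median signals and backgrounds, probe and spot filters, other window sizes and a threshold of 1. Calculations used R 4.3.3 with limma 3.58.1 and Python 3.11.15, and the window and gene steps were checked on simulated data.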

Additional observations from a re-analysis of the deposited data

Results flagged for a closer look

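Some loci differed in opposite directions with and without clr3. The pair went one way and the fft3Δ arrays, each set against the wild-type array of its slide, both went the other. These loci were picked by sign alone, with no minimum size, from the regions, the 56 named genes and the named stretches. Signs at random would also give this pattern at some loci, and how many was not worked out. The difference between the backgrounds was not tested, since the pair has 1 array a side. These were the Tf2 elements (0.236 for fft3Δ clr3Δ minus clr3Δ, but −0.11 after loess, the direction of both fft3Δ arrays), SPBPB2B2.16C (−0.893) with its stretch (−0.697), the small nucleolar RNA gene snoU14 (−0.621), the ribosomal protein gene rpl2701 (−0.383), the histone H4 gene hhf2 (−0.544), rec8 (−0.375), rep1 (−0.132), gpx1 (−0.647), and the stretch of tkt1 and hmt2 that begins at SPNCRNA.1532 (−0.579). At hhf2 and rpl2701 the differences between fft3Δ and wild type were small beside those of the pair. The same held for the stretch of tkt1 and hmt2 (+0.075 and +0.083 on slides 1 and 2) and rec8 (+0.04 and +0.107). At snoU14 the slide 1 value of +0.10 was below the wild-type SD of 0.26.

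The input channel, which is outside the main measurement, also differed. It was higher in fft3Δ clr3Δ than in clr3Δ by 1.571 at the rDNA genes and 0.984 at the rDNA spacers, and the double mutant was above all other arrays at both. Near mat3-Mi it was higher by 6.189, and in windows 21 and 22 of the mating-type contig by 3.204 and 4.214. Near mat3-Mi the fft3Δ arrays read −1.06 and −6.94 and the wild-type arrays −0.99, −7.09 and −6.99. Arrays with and without fft3 thus fell into both input classes. The labels do not give the mating-type genotype, so a strain difference there was not tested.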

How the results depend on the processing

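With 1 array of each genotype the pair has no replicate check, no replicate can be left out of it, and probe number cannot replace it. No paired analysis was possible because the 2 genotypes compared share a single replicate number. The central core changed sign, to −0.034 after quantile normalization, −0.41 after normexp and −0.50 with clr3Δ replaced by its straight-line fit to the double mutant over the arm, and was 0.081 with equal spread of arm windows, the last 2 alternatives being chosen after seeing the data. The gene hht2 changed sign to 0.062 under the fit. Loess gave 0.55 for the outer repeats, 0.24 for the subtelomere, −0.10 for the rDNA spacer, −0.57 for the rDNA genes and −0.11 for Tf2, with 53 higher windows and 49 higher genes. Equal arm spread gave 0.97 for the outer repeats, 0.65 for the rDNA spacer, 0.57 for chromosome III inside the rDNA and 0.44 for Tf2, which was 0.46 under the fit. Probes found once gave 0.69 for the outer repeats, with 29 higher windows of 2013 and 33 higher genes of 2104, since windows and genes of repeated probes drop out. The arm difference was −0.036 after quantile normalization, −0.077 after normexp, −0.027 when centred on the arm, −0.034 with probes found once, and 0.0 under the fit. Lower windows numbered 137 and lower genes 144 after normexp, and 20 and 10 under the fit. At a threshold of 1, 4 windows and 9 genes were higher and 6 windows and 3 genes lower. The spread ratio was 0.769 for arm windows, and the least squares slope was 0.627. The cause of these shifts was not tested. The outer repeats, subtelomere, mating-type region and chromosome III inside the rDNA kept their sign under all settings tried. For the 33 named genes past the fold, 413 of 414 alternative values had the same sign and 393 stayed past the fold. This agreement is largely built in. Most of these genes were picked for large differences on the same 2 arrays and for the same sign at equal spread. The deposited series table, counted as an alternative, repeats the reported values. For gene lists, 215 of 232 medians kept their sign. Signal was above background at nearly all probes outside the mating-type gaps. The central core had low centred input (−1.63 in fft3Δ clr3Δ and −1.77 in clr3Δ) and the lowest ratios. Its difference was +0.74 with only probes well above background, yet changed sign with the normexp background correction. Whether dim signal limits the core values was not tested.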
